A study of Rattus norvegicus with 39 samples.

Results

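ANIT and Roziglitazone were both given by mouth, and the livers of rats that received one or the other were compared 48 h later. The comparison took every array that the labels assign to these compounds, 5 for ANIT and 5 for Roziglitazone, which is 10 of the 39 arrays in the study. ANIT (alpha-naphthylisothiocyanate) was given at 125 mg/kg in corn oil, and Roziglitazone, as the labels spell rosiglitazone, at 1000 mg/kg in a methylcellulose solution. Each array held labelled RNA of the left lateral liver lobe of 1 rat aged 5 to 6 weeks. The 9 control rats were untreated and received no vehicle. Since the vehicles differ as well, compound and vehicle cannot be told apart in any value below. Strain and sex were not given in the labels.

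ANIT is a bile duct toxicant. It reaches the bile as a glutathione conjugate, injures the cells that line the bile ducts and slows or stops bile flow, so that bile acids collect in the hepatocytes. Hepatocytes take up bile acids from blood at their basal side through Slc10a1 and the organic anion transporters, export them into the bile canaliculus through Abcb11, and can send them back to the blood through Abcc3 and Abcc4. Rosiglitazone activates the nuclear receptor PPARG, which drives fat storage genes in adipocytes and is scarce in normal liver; a related receptor, PPARA, drives fatty acid oxidation in hepatocytes.

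Levels are log2 intensities, so a difference of 1 is a 2-fold change. A gene was called when limma, fitted with 1 mean per group, gave a Benjamini-Hochberg adjusted p below 0.05 over all 14217 genes. Differences are ANIT minus Roziglitazone with the SE from limma. All adjusted p values below are from that test, and the number of arrays limits their precision. Where a gene has a single difference in brackets, it comes from the fit without the 2 doubted arrays described next, which leaves 8. Alb, which encodes the main plasma protein made by hepatocytes, stood at 14.43 ± 0.03 (SD, n = 5) in ANIT, 14.46 ± 0.03 (SD, n = 5) in Roziglitazone and 14.44 ± 0.02 (SD, n = 9) in control, so hepatocyte RNA was abundant in each group. These levels are near the top of the intensity range, so they cannot show whether the amount of hepatocyte RNA differed.

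The profiles of 2 arrays go against their labels, and each result is given with and without them. Relative to the other arrays, the array labelled ANIT 3 correlated across genes at 0.705 with the group given another toxicant of the study (DMN) and at 0.301 with the other ANIT arrays. The array labelled Roziglitazone 2 correlated at 0.802 with ANIT and at −0.303 with its own group. Own-group values were also low in Roziglitazone 1, 3, 4 and 5, at −0.221, 0.057, 0.309 and 0.035, where the group mean included Roziglitazone 2. Of these only Roziglitazone 4 correlated best with its own group. Roziglitazone 3 and 5 did so with the group given caerulein (0.579 and 0.315), and Roziglitazone 1 with the group given DNP (0.354). With both left out, 1539 genes were called between the remaining 4 and 4 arrays. At 1445 of these genes (93.9%) the array labelled Roziglitazone 2 lay nearer the ANIT mean than the mean of the other Roziglitazone arrays, and on a scale from 0 at the Roziglitazone mean to 1 at the ANIT mean its median position was 0.907. The array labelled ANIT 3 lay nearer the ANIT mean at 818 genes (53.2%) and nearer the Roziglitazone mean at 721, with a median position of 0.549. These positions describe the arrays and test nothing, since the genes were called on the other 8. Roziglitazone 1 was also unusual, with a GAPDH 5′ probe set at 6.42 where the 3′ probe set stood 4.42 higher, and in ANIT 5 those values were 10.49 and 2.33; the other 8 arrays had a 5′ signal of at least 12.2. A low 5′ signal is a sign of shortened RNA. Controls 4 and 5 had a low GAPDH 5′ signal as well, at 7.42 and 6.34, and they remain in the control ranges below.

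**Figure D1:**
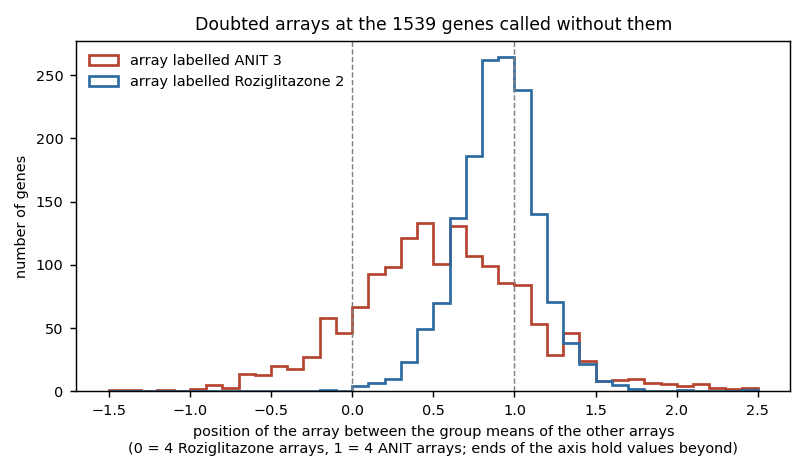
Number of genes (vertical axis) by the position of an array between the mean of the other 4 Roziglitazone arrays (0) and the mean of the other 4 ANIT arrays (1), for the 1539 genes called without both arrays. The array labelled Roziglitazone 2 peaks near the ANIT mean, with a median of 0.907, and the array labelled ANIT 3 spreads widely around a median of 0.549; values beyond the axis are in the end bins.

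With all 10 arrays as labelled, the genes called higher in ANIT liver than in Roziglitazone liver included 9 of 20 of the cytoskeleton and membrane repair, 6 of 34 of the cell cycle, 3 of 13 of bile duct cells and keratins and 1 of 6 efflux pumps. Those called lower included 9 of 20 listed as dependent on growth hormone, 6 of 23 of amino acid catabolism and 4 of 7 carriers of hepatocyte uptake. In limma 524 genes were called, 3.69% of those tested: 325 were higher in ANIT (2.29%) and 199 lower (1.4%), and 225 (1.58%) differed at least 2-fold. Without the arrays labelled ANIT 3 and Roziglitazone 2 the count was 1539 (10.8%), with 942 higher (6.63%) and 597 lower (4.2%), and 686 (4.83%) differed at least 2-fold. These shares over all genes are the ones to set beside every list count in the text. Of the 524 genes, 518 (3.64% of those tested) were among the 1539 with the same direction. The arrays of both groups did not overlap at 273 genes (1.92%) with all 10 arrays, ANIT being above at 164 (1.15%) and below at 109 (0.767%), and 98 of them (0.689%) were also called. With 8 arrays they did not overlap at 2491 (17.5%), ANIT being above at 1418 (9.97%) and below at 1073 (7.55%), and 1372 (9.65%) were also called. Leaving out 1 array gave 182 to 311 genes in 8 of 10 cases, 694 without ANIT 3 and 1343 without Roziglitazone 2, and a fit to the 10 arrays alone called 0 (2157 at an unadjusted p below 0.05). Of the counts without both arrays, 1539 became 1387 in a fit to the 8 arrays alone, 1010 without ANIT 5 and 951 without ANIT 5 and Roziglitazone 1. The median difference over all genes was −0.016 with 10 arrays and 0.0088 with 8.

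No gene was called between Roziglitazone and control in limma (0 of 14217) in either fit, while 1044 genes (7.34%) with all arrays and 921 (6.48%) without both had an unadjusted p below 0.05; with array weights 9 and 4 genes were called. A low count does not show that rosiglitazone changed nothing. The control range is given beside each gene listed array by array.

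**Figure D2:**
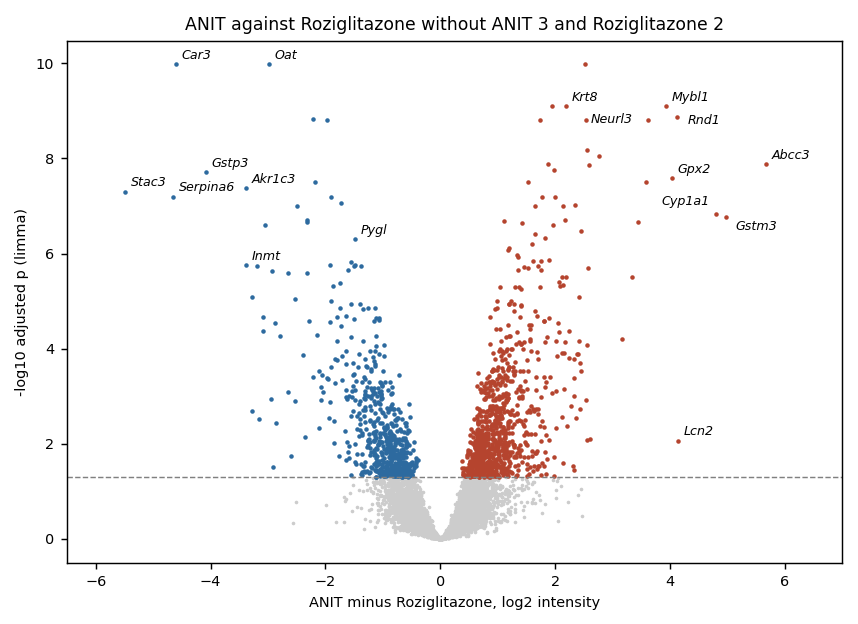
Difference between ANIT and Roziglitazone in log2 intensity (horizontal axis) against −log10 of the adjusted p from limma (vertical axis) for 14217 genes, without the arrays labelled ANIT 3 and Roziglitazone 2. The dashed line is the threshold of 0.05; 942 genes lie above it on the right (higher in ANIT, red) and 597 on the left (lower, blue), with Abcc3 farthest right and Stac3 farthest left.

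Genes of bile acid and drug transport were called in both directions, and none of the called uptake carriers was higher in ANIT. Of 6 measured genes for pumps that return bile acids or drugs to the blood or export drugs in general, 1 was called higher with all 10 arrays and 3 without both doubted arrays, and none lower; the median difference was 0.55 and then 0.77. Of 7 uptake transporters, 4 were lower with 10 arrays and 5 with 8, and none higher, with medians of −0.86 and −1.02.

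Abcc3, the basal efflux pump for bile acid glucuronides and other conjugates, was at 10.68, 10.10, 7.15, 10.65 and 11.21 in ANIT 1 to 5 and at 6.36, 10.59, 4.55, 4.69 and 4.36 in Roziglitazone 1 to 5. Its 9 controls ran from 4.52 to 7.15 with a median of 5.51. All ANIT arrays but the one labelled ANIT 3 lay above every Roziglitazone and control array except Roziglitazone 2, which sat among the ANIT arrays. The difference was 3.85 ± 0.79, adjusted p = 0.00395 with all 10 arrays and 5.67 ± 0.58, adjusted p = 1.31e-08 without both, the largest measured rise of all genes. Of the 4 undoubted Roziglitazone arrays 3 were near background, at or below 4.90, the highest mean of the poly-A spike controls. With signals below 4.90 set to it, which is how every bound below was taken, the level was at least 42.2-fold higher. Abcc4, a second basal bile acid pump, was at 5.96, 5.995, 5.16, 5.63 and 6.31 in ANIT 1 to 5 and at 4.09, 5.68, 5.17, 4.70 and 5.12 in Roziglitazone 1 to 5, and in the controls from 4.58 to 5.62, and was called only without the doubted arrays (1.20 ± 0.28, adjusted p = 0.00329); its Roziglitazone mean was near background, and the rise was at least 1.94-fold. Abcb1a, a multidrug pump, was likewise called only there (1.64 ± 0.41, adjusted p = 0.00619).

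Slc10a1, the sodium-dependent bile acid carrier, was at 11.49, 11.50, 12.20, 11.80 and 11.30 in ANIT 1 to 5 and at 12.88, 11.93, 12.78, 12.79 and 12.83 in Roziglitazone 1 to 5. The array labelled Roziglitazone 2 fell within the range of the ANIT arrays, and the array labelled ANIT 3 was the highest of its group. The level was lower in ANIT in both fits (−0.99 ± 0.23, adjusted p = 0.0115 with 10 arrays, −1.30 ± 0.24, adjusted p = 0.000228 with 8), and the controls ran from 12.35 to 12.85 with a median of 12.74. Slco1a1 (−2.06 ± 0.39, adjusted p = 0.000351), Slco1b2 (−1.02 ± 0.27, adjusted p = 0.00932) and the organic anion carrier Slc22a8 (−1.53 ± 0.28, adjusted p = 0.000203) were lower in both fits. Slco2b1 was called without the doubted arrays alone (−0.68 ± 0.23, adjusted p = 0.0487), and without 1 more array it lost the call in 7 of 8 cases. With single arrays left out of the 10, between 1 and 5 of the uptake transporters were called.

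The 8 genes of the canalicular face did not move as a group, with medians of 0.10 and 0.20. Abcb4, which flips phospholipid into bile and so shields the duct lining from bile acids, was at 11.52, 11.47, 10.22, 11.97 and 11.37 in ANIT 1 to 5 and at 8.83, 11.38, 9.23, 9.25 and 8.65 in Roziglitazone 1 to 5. In controls Abcb4 ran from 8.66 to 10.01. Apart from the arrays labelled ANIT 3 and Roziglitazone 2, no array of one group reached the other, and the level was 6.02-fold higher in ANIT without them (1.84 ± 0.35, adjusted p = 0.00249 with 10 arrays, 2.59 ± 0.27, adjusted p = 1.37e-08 with 8). Abcg5 and Abcg8, which together form the sterol exporter, went the other way and were called only without both arrays (−2.65 ± 0.54, adjusted p = 0.000835 and −1.59 ± 0.46, adjusted p = 0.0199). Abcb11, the bile salt export pump itself, was at 11.55, 11.65, 11.29, 11.54 and 11.58 in ANIT 1 to 5 and at 11.40, 11.73, 11.42, 11.54 and 11.33 in Roziglitazone 1 to 5. In controls Abcb11 ran from 11.17 to 11.60. Its arrays overlapped throughout, and it was not called (0.04 ± 0.18, adjusted p = 0.959 with 10 arrays, 0.16 ± 0.20, adjusted p = 0.712 with 8).

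Among 13 genes of bile acid synthesis and its control, 1 was lower with 10 arrays, and 1 was higher and 3 lower with 8. The medians were −0.21 and −0.20. Cyp7a1, the rate-limiting enzyme, was at 10.85, 10.74, 8.52, 10.74 and 11.68 in ANIT 1 to 5 and at 10.77, 10.22, 10.46, 11.57 and 10.59 in Roziglitazone 1 to 5. The arrays overlapped, the controls spanned 7.61 to 12.12 with a median of 9.85, and no difference was called (−0.21 ± 0.77, adjusted p = 0.941 with 10 arrays, 0.16 ± 0.84, adjusted p = 0.947 with 8). Amacr, a racemase of side-chain shortening, was lower in both fits (−1.38 ± 0.26, adjusted p = 0.00249 with 10 arrays, −1.64 ± 0.25, adjusted p = 2.04e-05 with 8). Without both arrays Acox2, the oxidase of the same pathway (−1.13 ± 0.28, adjusted p = 0.00635), and Nr1h4, which encodes the bile acid receptor FXR (−1.14 ± 0.29, adjusted p = 0.00675), were lower too, and Slc27a5, a bile acid CoA ligase, was higher (0.70 ± 0.17, adjusted p = 0.00539).

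**Figure D3:**
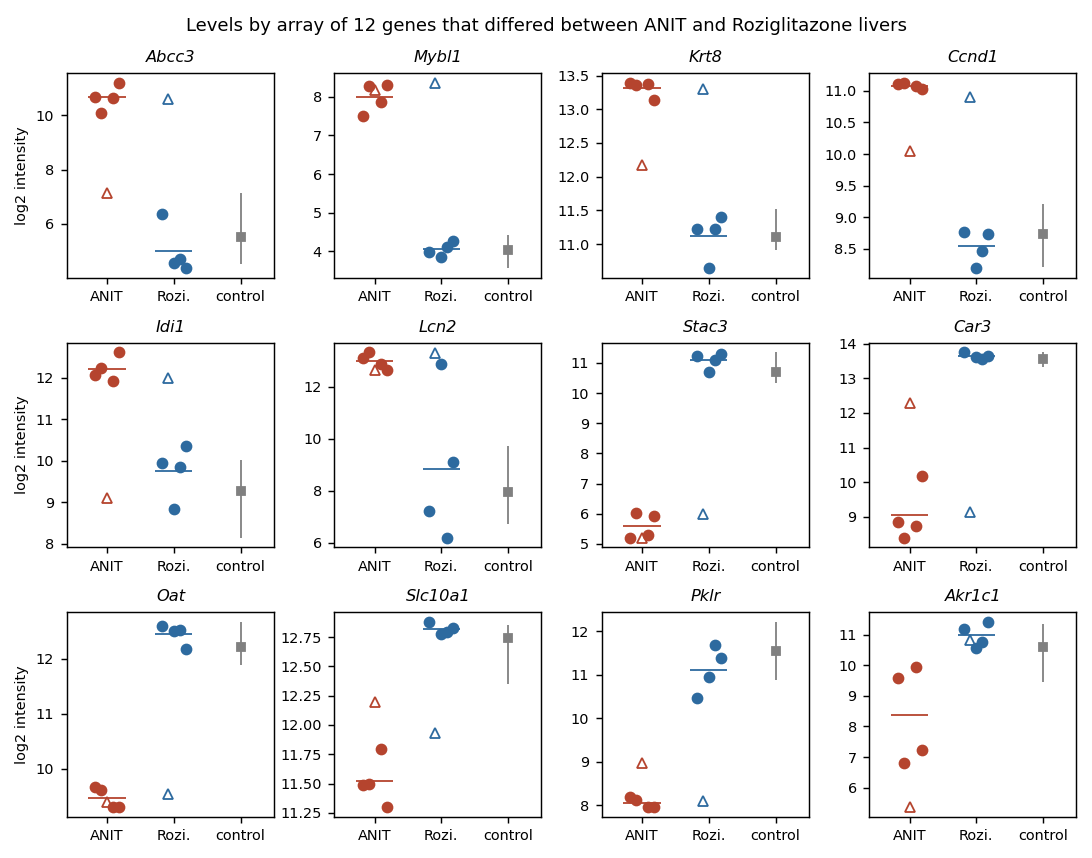
Log2 intensity of 12 genes in the ANIT arrays (red), the Roziglitazone arrays (blue) and the controls (grey square for the median, line from lowest to highest of 9). Open triangles are the arrays labelled ANIT 3 and Roziglitazone 2 and horizontal lines are the means of the other 4 arrays; for Abcc3 and Car3 each triangle lies toward the other group, while for Akr1c1 the Roziglitazone triangle, at 10.82, lies with its own group.

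Many genes of the cytoskeleton and of membrane repair were higher in ANIT. Of 20 measured, 9 were called with 10 arrays and 13 with 8, none was lower, and the medians were 0.88 and 0.96. The mean of the list over its control level was 1.17, 1.20, 1.25, 1.002 and 1.21 in ANIT 1 to 5 and 0.09, 1.18, −0.46, −0.32 and 0.03 in Roziglitazone 1 to 5. On this list the array labelled ANIT 3 stood with the other ANIT arrays, and only the array labelled Roziglitazone 2 left its group.

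Rnd1, a GTPase that loosens cell contacts and actin fibres, was at 8.77, 9.58, 8.59, 8.99 and 9.29 in ANIT 1 to 5 and at 5.22, 9.26, 4.73, 4.73 and 5.49 in Roziglitazone 1 to 5. The Roziglitazone arrays other than Roziglitazone 2 lay within or close to the control range of 4.28 to 5.55 with a median of 4.87. The difference was 3.16 ± 0.51, adjusted p = 0.00079 with 10 arrays and 4.11 ± 0.37, adjusted p = 1.34e-09 with 8, at least 16.3-fold since 2 of the 4 undoubted Roziglitazone arrays were near background. Tnfrsf12a, the receptor for the cytokine TWEAK, was 10.1-fold higher without both arrays (2.503 ± 0.52, adjusted p = 0.00427 with 10 arrays, 3.33 ± 0.46, adjusted p = 3.06e-06 with 8). S100a10 (2.13 ± 0.30, adjusted p = 4.61e-06) and S100a11 (2.01 ± 0.40, adjusted p = 0.000764), calcium-binding partners of annexins, were higher in both fits. Tubb6, a tubulin, was also higher (2.42 ± 0.35, adjusted p = 8.40e-06), but its second, dimmer probe set gave −0.15. Leaving out single arrays gave 9 to 12 called members without both doubted arrays and 5 to 14 of 20 with all 10 arrays, the fewest without Roziglitazone 3.

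Of 13 genes of bile duct cells and simple keratins, 3 were higher in ANIT with 10 arrays and 5 with 8, and none was lower. Krt8 and Krt18 form the keratin filaments of hepatocytes as well as of bile duct cells. Krt8 was at 13.40, 13.36, 12.17, 13.37 and 13.14 in ANIT 1 to 5 and at 11.23, 13.30, 10.64, 11.23 and 11.40 in Roziglitazone 1 to 5. The 4 undoubted ANIT arrays lay within a narrow band well above the controls (10.91 to 11.53 with a median of 11.10), and Roziglitazone 2 lay inside that band. The difference was 1.53 ± 0.28, adjusted p = 0.0024 and 2.19 ± 0.19, adjusted p = 8.02e-10, and for Krt18 it was 1.24 ± 0.25, adjusted p = 0.00335 and 1.77 ± 0.20, adjusted p = 6.48e-08. Cldn7, a tight junction protein of epithelia, was higher in both fits (1.28 ± 0.32, adjusted p = 0.0177 with 10 arrays, 1.69 ± 0.30, adjusted p = 0.000167 with 8) although ANIT 2, at 5.60, stood near the Roziglitazone arrays. Epcam (1.07 ± 0.29, adjusted p = 0.0134) and Anxa4 (1.12 ± 0.31, adjusted p = 0.0162) were called only without both arrays and lost that call without ANIT 5, as without Roziglitazone 3; a second probe set of Anxa4 gave −0.22.

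Krt7 and Krt19, the keratins that set bile duct cells apart from hepatocytes, were not called. Krt19 was at 6.18, 6.18, 6.83, 6.23 and 6.02 in ANIT 1 to 5 and at 7.68, 6.07, 6.59, 6.41 and 6.64 in Roziglitazone 1 to 5. In controls Krt19 ran from 6.65 to 7.67. All ANIT arrays but ANIT 3 lay below the Roziglitazone arrays other than Roziglitazone 2, with differences of −0.39 ± 0.28, adjusted p = 0.539 and −0.68 ± 0.31, adjusted p = 0.164. Krt7 gave 0.27 ± 0.21, adjusted p = 0.477. In RNA of whole tissue, fewer cells of a type and less RNA per cell cannot be told apart.

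**Figure D4:**
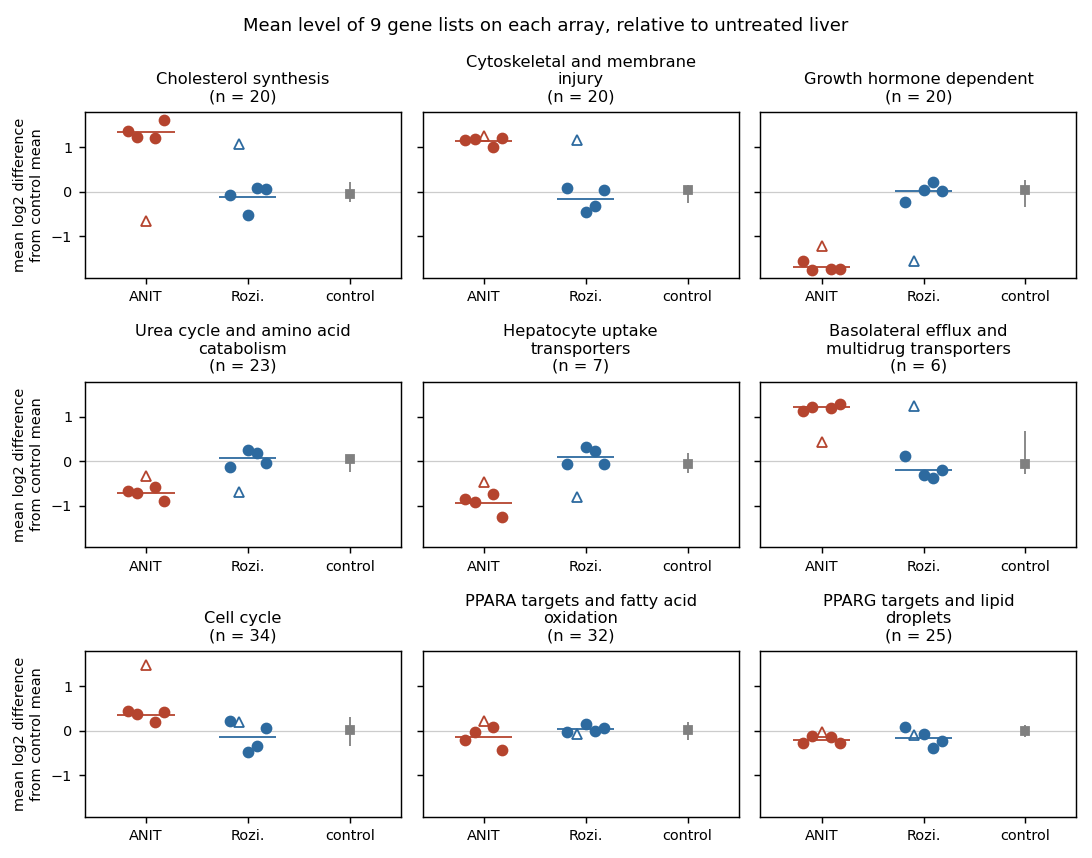
Mean log2 difference from the control mean (vertical axis) over the measured members of 9 gene lists, for each ANIT (red) and Roziglitazone (blue) array; open triangles are the arrays labelled ANIT 3 and Roziglitazone 2, horizontal lines are means of the other 4 arrays, and grey marks the median and range of 9 controls. For cholesterol synthesis ANIT 3 is at −0.66 and Roziglitazone 2 at 1.07, while for cell cycle genes ANIT 3 is the highest array at 1.48.

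Cholesterol synthesis had the highest share of called members of the 34 lists once the doubted arrays were removed. Of 20 measured genes 2 were higher in ANIT with all 10 arrays and 16 with 8, none was lower in either fit, and the median difference went from 0.73 to 1.41. The mean of the list over its control level was 1.36, 1.23, −0.66, 1.21 and 1.62 in ANIT 1 to 5 and −0.06, 1.07, −0.51, 0.08 and 0.07 in Roziglitazone 1 to 5. Each doubted array stood with the other group here, and the controls ran from −0.24 to 0.22. Leaving out 1 more array gave 13 to 16 called members, and also leaving out ANIT 5 and Roziglitazone 1 gave 12.

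Idi1, which isomerises isopentenyl diphosphate, was at 12.07, 12.23, 9.11, 11.91 and 12.61 in ANIT 1 to 5 and at 9.96, 11.999, 8.85, 9.84 and 10.35 in Roziglitazone 1 to 5. In controls Idi1 ran from 8.14 to 10.01. Without both arrays it was 5.49-fold higher in ANIT (2.46 ± 0.46, adjusted p = 0.000297), with no overlap, and with all 10 it was not called (1.39 ± 0.53, adjusted p = 0.15). Mvd, the decarboxylase one step earlier, was called in both fits (1.72 ± 0.43, adjusted p = 0.0177 with 10 arrays, 2.77 ± 0.28, adjusted p = 8.96e-09 with 8). Acat2 (2.58 ± 0.34, adjusted p = 2.00e-06), whose product starts the pathway, Sqle (2.37 ± 0.41, adjusted p = 0.000128), which makes the squalene epoxide, and Hsd17b7 (2.11 ± 0.48, adjusted p = 0.00278), a late sterol reductase, were called only without both.

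Genes of fatty acid and triglyceride synthesis were called in both directions. Of 19 lipogenesis genes 3 were lower with 10 arrays, and 4 were lower and 2 higher with 8. Pklr, the glycolytic liver pyruvate kinase, was at 8.19, 8.13, 8.96, 7.97 and 7.95 in ANIT 1 to 5 and at 10.46, 8.09, 10.94, 11.68 and 11.39 in Roziglitazone 1 to 5. In controls Pklr ran from 10.87 to 12.22. No undoubted arrays overlapped, and ANIT was 8.33-fold lower (−2.27 ± 0.43, adjusted p = 0.00249 with 10 arrays, −3.06 ± 0.37, adjusted p = 2.51e-07 with 8). Scd, the stearoyl-CoA desaturase, was lower in all 5 ANIT arrays than in any Roziglitazone array (−1.81 ± 0.37, adjusted p = 0.00395 with 10 arrays, −1.92 ± 0.41, adjusted p = 0.0013 with 8). Thrsp, a lipogenic nuclear protein, was lower in both fits (−1.03 ± 0.21, adjusted p = 0.00116), and Dgat2, which completes triglycerides, only without both (−0.56 ± 0.19, adjusted p = 0.0462). The elongase gene Elovl6 (2.43 ± 0.44, adjusted p = 0.000205) and Acss2, which activates acetate (1.36 ± 0.37, adjusted p = 0.0126), were the members that were higher; in the array labelled ANIT 3 they stood at 6.31 and 8.22, below every other ANIT array.

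Some of the genes listed as dependent on growth hormone were lower in ANIT. The list holds Stac3, called in both fits, and was drawn up with earlier results of these data known. Of 20 measured, 9 were lower with 10 arrays and 10 with 8, and none was higher, with medians of −0.85 and −1.03. The list stood at −1.55, −1.77, −1.21, −1.74 and −1.74 relative to control in ANIT 1 to 5 and at −0.23, −1.55, 0.03, 0.22 and 0.01 in Roziglitazone 1 to 5. All ANIT arrays and the array labelled Roziglitazone 2 were far below the controls, whose lowest was −0.33.

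Stac3, an adaptor protein with known roles in muscle, was at 5.19, 6.01, 5.21, 5.30 and 5.91 in ANIT 1 to 5 and at 11.25, 6.000, 10.71, 11.11 and 11.31 in Roziglitazone 1 to 5. Its controls ran from 10.32 to 11.36 with a median of 10.69, a range that held the 4 undoubted Roziglitazone arrays. The level was 44.9-fold lower in ANIT without both arrays (−4.55 ± 0.71, adjusted p = 0.000754 with 10 arrays, −5.49 ± 0.60, adjusted p = 5.03e-08 with 8), the largest fall of all genes. Car3, a carbonic anhydrase of liver, muscle and fat, was at 8.85, 8.39, 12.30, 8.75 and 10.18 in ANIT 1 to 5 and at 13.76, 9.13, 13.62, 13.55 and 13.64 in Roziglitazone 1 to 5. In controls Car3 ran from 13.33 to 13.75. ANIT 3 was closer to the Roziglitazone arrays than to its own, and the differences were −3.05 ± 0.60, adjusted p = 0.00295 and −4.60 ± 0.36, adjusted p = 1.05e-10. Serpina6, the corticosteroid carrier of plasma, was 25.2-fold lower without both (−3.32 ± 0.64, adjusted p = 0.00257 with 10 arrays, −4.65 ± 0.52, adjusted p = 6.42e-08 with 8), and Cyp2c11, a P450 typical of male rat liver, 7.6-fold (−2.30 ± 0.42, adjusted p = 0.00229 with 10 arrays, −2.93 ± 0.40, adjusted p = 2.32e-06 with 8). Ust5r was also lower in both fits (−3.19 ± 0.42, adjusted p = 1.79e-06).

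Of 25 P450 genes of drug metabolism, 4 were lower with 10 arrays, and 6 were lower and 2 higher with 8. Leaving out 1 of the 10 arrays brought the lower calls to between 0 and 7. Cyp1a1, the P450 that the aryl hydrocarbon receptor induces, was at 11.76, 10.03, 5.48, 9.996 and 12.19 in ANIT 1 to 5 and at 6.84, 11.33, 6.83, 5.14 and 5.995 in Roziglitazone 1 to 5. In controls Cyp1a1 ran from 5.69 to 8.30. ANIT 3 was the lowest of the 10 arrays but for Roziglitazone 4, and Roziglitazone 2 was among the highest. The gene was called only without both (2.66 ± 0.85, adjusted p = 0.0693 with 10 arrays, 4.79 ± 0.56, adjusted p = 1.50e-07 with 8), at 27.7-fold. Cyp17a1, a steroid hydroxylase, was the other one that was higher (1.83 ± 0.46, adjusted p = 0.00667). Cyp2b3 (−0.88 ± 0.17, adjusted p = 0.000504) was lower in both fits and Cyp2d3 (−0.98 ± 0.28, adjusted p = 0.02) only without both arrays.

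Among 23 conjugation enzymes, 1 was higher and 4 lower with 10 arrays, and 3 higher and 5 lower with 8. Gstm3, a glutathione S-transferase, was at 12.07, 12.02, 7.80, 11.64 and 11.07 in ANIT 1 to 5 and at 5.93, 11.84, 6.38, 7.44 and 7.13 in Roziglitazone 1 to 5. In controls Gstm3 ran from 5.97 to 8.55. Here too the doubted arrays stood with or near the opposite groups, and the difference was 3.18 ± 0.78, adjusted p = 0.0157 and 4.98 ± 0.58, adjusted p = 1.71e-07, 31.6-fold. Gstp3, another glutathione S-transferase, went down 17-fold (−2.76 ± 0.58, adjusted p = 0.00479 with 10 arrays, −4.09 ± 0.43, adjusted p = 1.93e-08 with 8). The sulfotransferase Sult1c3 (−2.32 ± 0.28, adjusted p = 2.14e-07), Gstz1, an enzyme of tyrosine breakdown (−1.07 ± 0.17, adjusted p = 2.44e-05), and the acetyltransferase Nat8 (−1.41 ± 0.30, adjusted p = 0.00148) were lower in both fits. Sult1c2 was lower without both arrays, by at least 5.72-fold because the ANIT mean was near background (−2.87 ± 0.67, adjusted p = 0.00358), and Ugt2b1 (1.15 ± 0.31, adjusted p = 0.0117) and Gstm1 (0.64 ± 0.17, adjusted p = 0.00938) were higher. Glutathione S-transferases, P450s and aldo-keto reductases are large families, and a probe set can take up RNA of a close relative.

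Several enzymes of amino acid catabolism were lower in ANIT. Of 23 genes of the urea cycle and amino acid breakdown, 6 were lower with 10 arrays and 12 with 8, and none was higher, with medians of −0.42 and −0.72. Oat, ornithine aminotransferase, was at 9.67, 9.61, 9.39, 9.31 and 9.29 in ANIT 1 to 5 and at 12.60, 9.54, 12.50, 12.52 and 12.18 in Roziglitazone 1 to 5. The ANIT arrays, the doubted one included, lay close together and more than 2 units below the controls (11.88 to 12.68 with a median of 12.21). The difference was −2.41 ± 0.34, adjusted p = 0.000322 and −2.98 ± 0.24, adjusted p = 1.05e-10, a 7.88-fold lower level. Otc, the urea cycle enzyme that makes citrulline (−1.14 ± 0.25, adjusted p = 0.00574 with 10 arrays, −1.56 ± 0.23, adjusted p = 1.13e-05 with 8), and Hal, which starts histidine breakdown (−0.92 ± 0.26, adjusted p = 0.0354 with 10 arrays, −1.49 ± 0.20, adjusted p = 1.77e-06 with 8), were lower in both fits. Sds, serine dehydratase (−2.94 ± 0.61, adjusted p = 0.00112), and Bckdhb, a subunit of the branched-chain ketoacid dehydrogenase (−1.41 ± 0.33, adjusted p = 0.00393), were called only without both. Without 1 more array 11 to 13 members were lower.

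Related energy pathways held fewer calls. Of 15 genes of glucose and glycogen handling 2 were lower with 10 arrays and 5 with 8: Pygl, the glycogen phosphorylase of liver (−1.49 ± 0.18, adjusted p = 5.00e-07), Slc37a4, the glucose-6-phosphate carrier (−1.90 ± 0.28, adjusted p = 9.85e-06), Pdk4, which restrains pyruvate dehydrogenase (−2.11 ± 0.51, adjusted p = 0.00477), Fbp1 (−0.55 ± 0.17, adjusted p = 0.027) and Sds, which is on both lists. Fbp1 lost the call in 5 of the 8 fits that left out 1 more array. Of 23 genes of oxidative phosphorylation 1 was lower with 10 arrays (Sdha, −0.72 ± 0.19, adjusted p = 0.0242) and 3 with 8: Sdha (−1.01 ± 0.19, adjusted p = 0.000291), Uqcrc2 (−1.91 ± 0.35, adjusted p = 0.000241) and Ndufs1 (−0.73 ± 0.24, adjusted p = 0.0467). Of 15 clock genes none was called with 10 arrays and 3 were lower with 8, namely Npas2 (−1.61 ± 0.45, adjusted p = 0.0151), Nr1d1 (−1.27 ± 0.41, adjusted p = 0.0375) and Hlf (−1.32 ± 0.31, adjusted p = 0.0035). For Nr1d1 all ANIT arrays lay within the control range of 6.84 to 8.55, and Roziglitazone 4 and 5, at 9.48 and 9.03, lay above it. Of 3 other probe sets of Hlf, 2 gave −0.82 and −0.68 and the dimmest gave 1.07. The time of day at sampling was not given in the labels.

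Target genes of the PPARs, the receptor family through which rosiglitazone acts, were called in both directions. Of 25 genes of PPARG and lipid droplets, 2 were higher and 1 lower in ANIT with 10 arrays and 3 higher and 2 lower with 8, with medians of −0.034 and 0.0044. Over all genes 6.63% were higher and 4.2% lower with 8 arrays, so counts this small are not read as a shift of the list. Plin2, the coat protein of hepatocyte lipid droplets, was at 11.80, 11.70, 12.32, 11.49 and 10.82 in ANIT 1 to 5 and at 12.002, 11.87, 12.13, 11.19 and 11.38 in Roziglitazone 1 to 5. In controls Plin2 ran from 11.45 to 12.24. Its groups overlapped and it was not called (−0.09 ± 0.20, adjusted p = 0.891 with 10 arrays, −0.22 ± 0.21, adjusted p = 0.574 with 8), and a second probe set gave 0.40 in place of −0.22. Fabp4, a lipid carrier that PPARG induces in adipocytes and macrophages, was at 6.83, 6.15, 8.48, 7.72 and 5.27 in ANIT 1 to 5 and at 7.28, 7.03, 6.10, 5.60 and 5.62 in Roziglitazone 1 to 5. In controls Fabp4 ran from 4.92 to 7.18. Its highest array was the one labelled ANIT 3, and it was not called (0.56 ± 0.53, adjusted p = 0.669 with 10 arrays, 0.34 ± 0.56, adjusted p = 0.789 with 8).

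The called members of that list were Cidea, a lipid droplet fusion protein (1.34 ± 0.37, adjusted p = 0.0343 with 10 arrays, 1.67 ± 0.36, adjusted p = 0.00183 with 8), the mitochondrial carrier Ucp2 (0.91 ± 0.26, adjusted p = 0.0435 with 10 arrays, 1.02 ± 0.28, adjusted p = 0.0141 with 8) and, without both arrays, the lipase Pnpla2 (0.68 ± 0.21, adjusted p = 0.0274), all higher in ANIT. The lower ones were Acsl1, which activates fatty acids (−0.84 ± 0.20, adjusted p = 0.0138 with 10 arrays, −1.14 ± 0.20, adjusted p = 0.00011 with 8), and the glycerol kinase Gk (−1.40 ± 0.34, adjusted p = 0.00511). A second probe set of Acsl1, at a mean of 11.88, gave only −0.06 with 10 arrays and −0.22 with 8, and a far dimmer one gave −0.07 and −0.04. Cidea was at 8.85, 9.03, 9.42, 9.34 and 8.998 in ANIT 1 to 5 and at 7.86, 9.43, 6.54, 6.50 and 8.63 in Roziglitazone 1 to 5. In controls Cidea ran from 6.58 to 8.59. All ANIT arrays were above the control median of 7.61, and Roziglitazone 5 came near the ANIT arrays. Lpl, which adipocytes and macrophages express, gave 0.73 ± 0.26, adjusted p = 0.0704 and was not called.

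Of 32 genes of PPARA and fatty acid oxidation, 2 were higher and 2 lower with 10 arrays, and 1 was higher and 4 lower with 8, with medians of −0.10 and −0.17. With 8 arrays 6.63% of all genes were higher and 4.2% lower. Cyp4a1, a P450 that PPARA agonists induce strongly in rat liver, was at 10.98, 11.60, 11.81, 11.88 and 11.38 in ANIT 1 to 5 and at 11.54, 11.33, 11.13, 11.50 and 11.53 in Roziglitazone 1 to 5. In controls Cyp4a1 ran from 11.05 to 11.81. Its groups overlapped and neither fit called it (0.12 ± 0.20, adjusted p = 0.838 with 10 arrays, 0.03 ± 0.23, adjusted p = 0.96 with 8). Eci1, an isomerase of unsaturated fatty acid oxidation, was the member that was higher in both fits (1.16 ± 0.23, adjusted p = 0.00295 with 10 arrays, 1.60 ± 0.20, adjusted p = 6.20e-07 with 8). Acot1 was called with 10 arrays only (0.71 ± 0.21, adjusted p = 0.0491), with a Roziglitazone mean near background. Acsl1, the fatty acid binding protein gene Fabp1 (−0.44 ± 0.11, adjusted p = 0.021 with 10 arrays, −0.55 ± 0.12, adjusted p = 0.00148 with 8), Pdk4 and the oxidation enzyme Hadh (−1.09 ± 0.25, adjusted p = 0.00292) were lower without both. Angptl4, a lipase inhibitor that PPARs induce, was at 8.48, 9.12, 10.30, 9.53 and 8.75 in ANIT 1 to 5 and at 10.59, 9.07, 11.90, 9.62 and 8.91 in Roziglitazone 1 to 5. In controls Angptl4 ran from 10.08 to 11.20. It was highest in Roziglitazone 3, and was not called (−0.78 ± 0.43, adjusted p = 0.384 with 10 arrays, −1.28 ± 0.46, adjusted p = 0.0687 with 8).

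**Figure D5:**
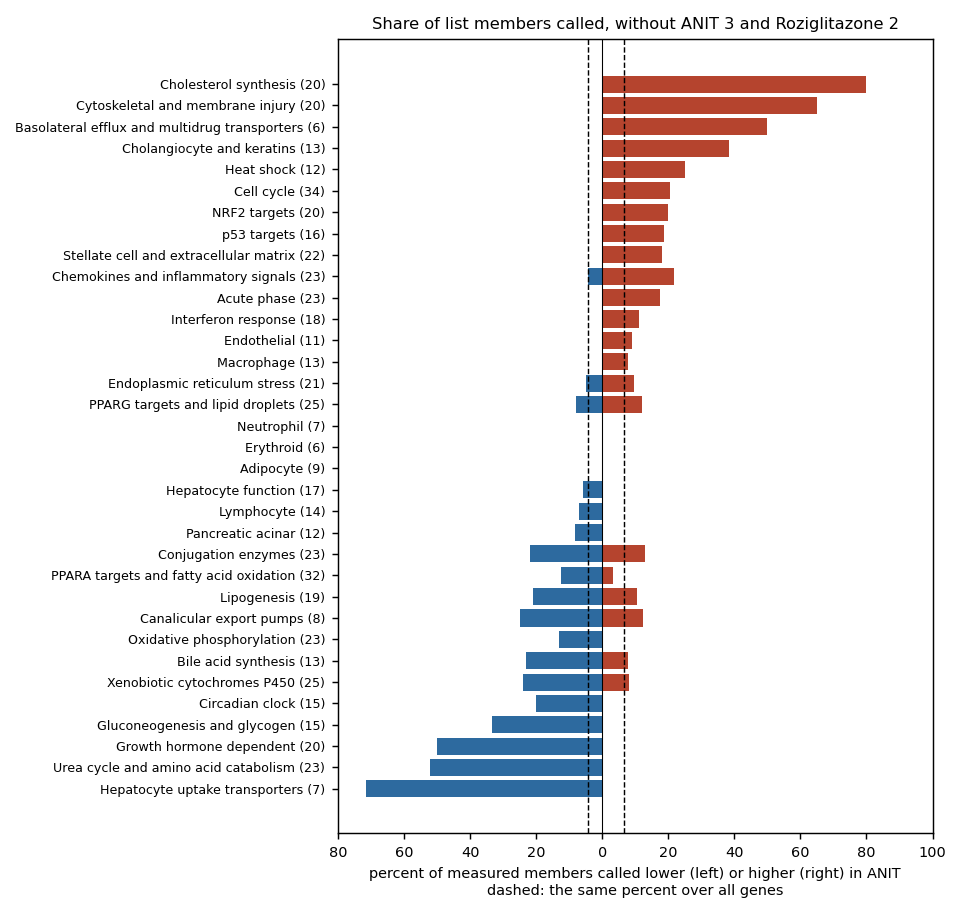
Percent of measured members (horizontal axis) called higher (red, right) or lower (blue, left) in ANIT without the arrays labelled ANIT 3 and Roziglitazone 2, for 34 gene lists with the number of measured members in brackets; the dashed lines are the shares over all genes, 6.63% higher and 4.2% lower. Cholesterol synthesis (16 of 20) and the cytoskeletal list (13 of 20) reach farthest right and the uptake transporters (5 of 7) farthest left.

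Genes of oxidative defence under the factor NRF2 gave few calls, with a large difference at Gpx2. Of 20 measured, 2 were higher with 10 arrays and 4 with 8, and none was lower, with medians of 0.41 and 0.43. Gpx2, a glutathione peroxidase, was at 9.02, 8.47, 6.000, 9.31 and 8.97 in ANIT 1 to 5 and at 5.72, 8.17, 4.44, 5.04 and 4.45 in Roziglitazone 1 to 5. The 4 undoubted ANIT arrays were far above the controls (4.46 to 5.82 with a median of 5.00), Roziglitazone 2 stood just below them and ANIT 3 just above the other Roziglitazone arrays. The difference was 2.79 ± 0.55, adjusted p = 0.00295 and 4.03 ± 0.43, adjusted p = 2.57e-08, at least 14-fold since 2 of the 4 undoubted Roziglitazone arrays were near background. Srxn1, sulfiredoxin, was higher in both fits (1.80 ± 0.47, adjusted p = 0.0217 with 10 arrays, 2.24 ± 0.39, adjusted p = 0.000158 with 8), although its other probe sets gave 0.51 and, the dimmest, −0.32. Pgd, of the pentose phosphate pathway (0.83 ± 0.22, adjusted p = 0.0105), and Gstm1 were called without both arrays only.

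NRF2 binds the antioxidant response element, which was searched as TGACNNNGC on both strands in 300-base promoter windows of RefSeq on the build GRCr8. The letters occurred in 6 of 18 NRF2 list promoters (33.3%) and in 4038 of 33469 rat promoters in all (12.1%). The 6 genes were Gpx2, Gsta3 (1.30 without both arrays), Gstp1 (0.18), Ugdh (0.05), Gclm (−0.65) and Me1 (−0.91), so that genes with the letters lay on either side of 0. Only Gpx2 of these 6 was called in either fit. For comparison, 4 of 16 cholesterol synthesis promoters (25%) held them, and the sterol regulatory element, searched as TCACNCCAC, occurred in 0 of those 16 and in 374 promoters in all (1.12%). A match is a string of letters and not a bound site. The promoters of Gpx2, at chr6:101229984-101230283, and of Me1, at chr8:96540195-96540494, both on the minus strand, are shown because they carry the same element and their genes had differences of opposite sign, that of Me1 not called. The capitals mark the match, whose first base lies at −13 from the transcription start in Gpx2 and at −167 in Me1.
Gpx2: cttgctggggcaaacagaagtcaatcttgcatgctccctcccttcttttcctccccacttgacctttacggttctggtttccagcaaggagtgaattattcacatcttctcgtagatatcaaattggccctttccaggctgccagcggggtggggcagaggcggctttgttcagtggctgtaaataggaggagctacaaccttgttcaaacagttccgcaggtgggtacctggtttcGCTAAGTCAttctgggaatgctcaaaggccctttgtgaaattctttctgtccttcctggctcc
Me1: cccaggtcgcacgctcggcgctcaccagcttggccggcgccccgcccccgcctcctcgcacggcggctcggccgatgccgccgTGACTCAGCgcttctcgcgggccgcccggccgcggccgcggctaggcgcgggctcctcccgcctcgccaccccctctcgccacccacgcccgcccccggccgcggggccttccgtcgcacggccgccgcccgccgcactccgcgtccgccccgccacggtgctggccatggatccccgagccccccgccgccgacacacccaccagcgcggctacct
Me1, which encodes malic enzyme, was at 9.17, 8.73, 8.48, 8.32 and 9.26 in ANIT 1 to 5 and at 9.98, 9.32, 9.44, 10.38 and 9.33 in Roziglitazone 1 to 5. In controls Me1 ran from 9.38 to 10.36. All ANIT arrays lay below all Roziglitazone arrays, but the gene was not called (−0.90 ± 0.29, adjusted p = 0.0736 with 10 arrays, −0.91 ± 0.33, adjusted p = 0.0683 with 8) and another probe set of it gave 0.81.

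Other stress programs gave calls for a few members. Over all genes 6.63% were higher and 4.2% lower with 8 arrays, and the counts for endoplasmic reticulum stress were near these shares. Of 16 p53 targets 2 were higher with 10 arrays and 3 with 8: Cdkn1a, the cell cycle inhibitor p21 (1.72 ± 0.44, adjusted p = 0.0202 with 10 arrays, 1.77 ± 0.41, adjusted p = 0.00331 with 8), Phlda3 (1.31 ± 0.25, adjusted p = 0.00257 with 10 arrays, 1.43 ± 0.25, adjusted p = 0.000101 with 8) and Aen (0.82 ± 0.26, adjusted p = 0.0316), whose dimmer probe set gave −0.06. Cdkn1a was at 10.08, 10.31, 11.91, 10.11 and 9.92 in ANIT 1 to 5 and at 9.41, 10.39, 8.99, 7.43 and 7.52 in Roziglitazone 1 to 5. It was highest in the array labelled ANIT 3 and lowest in Roziglitazone 4 and 5, which lay below the controls (8.98 to 10.67 with a median of 9.99), while the undoubted ANIT arrays lay within the control range. Of 12 heat shock genes 2 were higher with 10 arrays and 3 with 8: Hspa1a (2.55 ± 0.65, adjusted p = 0.00824), the small heat shock protein genes Cryab (1.59 ± 0.45, adjusted p = 0.0181) and Hspb8 (0.98 ± 0.30, adjusted p = 0.0317); none was called without ANIT 5. Of 21 genes of endoplasmic reticulum stress Atf3, a stress-induced transcription factor, was higher in both fits (2.33 ± 0.74, adjusted p = 0.0359), and without both arrays Asns, asparagine synthetase (1.24 ± 0.34, adjusted p = 0.0147), was higher and the disulfide isomerase Pdia6 (−0.54 ± 0.17, adjusted p = 0.0307) lower. Without Roziglitazone 4 none of that list was called. Atf3 in ANIT 1, 2 and 4 lay within the control range of 5.59 to 8.37. Hspa1a in ANIT 1 and 4 lay within the control range of 6.62 to 9.01, and Roziglitazone 3 and 4, at 6.55 and 5.998, lay below it.

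Of 34 cell cycle genes 6 were higher in ANIT with 10 arrays and 7 with 8, and none was lower. Ccnd1, the cyclin that starts the G1 phase, was at 11.10, 11.13, 10.05, 11.07 and 11.03 in ANIT 1 to 5 and at 8.77, 10.90, 8.19, 8.47 and 8.73 in Roziglitazone 1 to 5. The undoubted ANIT arrays lay between 11.03 and 11.13, and the controls ran from 8.20 to 9.22 with a median of 8.73. The difference was 1.87 ± 0.32, adjusted p = 0.00101 and 2.54 ± 0.24, adjusted p = 1.54e-09, 5.83-fold. The replication licensing genes Mcm6 (2.21 ± 0.53, adjusted p = 0.00424) and Mcm3 (1.04 ± 0.20, adjusted p = 0.00057) were higher in both fits and Mcm4 (1.13 ± 0.36, adjusted p = 0.0358) without both arrays. Ube2c, which acts in mitosis, was at 7.92, 7.51, 10.12, 7.63 and 7.996 in ANIT 1 to 5 and at 7.01, 6.72, 4.56, 6.23 and 7.17 in Roziglitazone 1 to 5. In controls Ube2c ran from 6.13 to 7.77. It was called with 10 arrays only (1.90 ± 0.52, adjusted p = 0.0322 with 10 arrays, 1.52 ± 0.54, adjusted p = 0.0659 with 8), and its highest value was that of ANIT 3. The list mean of ANIT 3 was 1.48 over control against 0.19 to 0.44 in the other ANIT arrays. The count of 7 became 3 without Roziglitazone 4 and 9 without Roziglitazone 1.

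Plasma proteins of the acute phase were higher in part. Of 23 measured, 2 were called with 10 arrays and 4 with 8, all higher in ANIT. Leaving out Roziglitazone 4 as well gave 2. Lcn2, an iron-sequestering protein, was at 13.12, 13.34, 12.66, 12.87 and 12.65 in ANIT 1 to 5 and at 7.24, 13.30, 12.89, 6.19 and 9.10 in Roziglitazone 1 to 5. In controls Lcn2 ran from 6.71 to 9.71. Roziglitazone 3 was as high as the ANIT arrays on this gene, as it was on the list as a whole, where its mean of 0.78 over control exceeded the 0.48 to 0.74 of the ANIT arrays. Lcn2 was called only without both arrays (3.18 ± 1.02, adjusted p = 0.0692 with 10 arrays, 4.14 ± 1.07, adjusted p = 0.00867 with 8) and lost the call without Roziglitazone 4. Lbp, the binding protein for bacterial lipopolysaccharide, was higher in both fits (1.70 ± 0.37, adjusted p = 0.00632 with 10 arrays, 2.23 ± 0.36, adjusted p = 4.28e-05 with 8), as was Orm1 (0.83 ± 0.23, adjusted p = 0.0372 with 10 arrays, 1.05 ± 0.24, adjusted p = 0.00289 with 8), while Hamp, the iron hormone hepcidin, was called without both only (1.98 ± 0.66, adjusted p = 0.0473).

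Of 23 chemokine and inflammatory signal genes 4 were higher with 10 arrays, and 5 were higher and 1 lower with 8. Tnfaip3, an inhibitor of NF-kappa B, was at 8.43, 8.37, 7.72, 8.14 and 8.39 in ANIT 1 to 5 and at 7.56, 7.29, 5.10, 5.73 and 6.34 in Roziglitazone 1 to 5. In controls Tnfaip3 ran from 5.99 to 7.65. Every ANIT array was above every Roziglitazone array, the doubted arrays included (1.80 ± 0.39, adjusted p = 0.00574 with 10 arrays, 2.15 ± 0.43, adjusted p = 0.000717 with 8). Nfkbia, another such inhibitor, did not overlap either (1.19 ± 0.27, adjusted p = 0.00799 with 10 arrays, 1.28 ± 0.30, adjusted p = 0.00389 with 8). Cxcl16 (1.06 ± 0.19, adjusted p = 0.000146) was higher in both fits and the adhesion molecule Icam1 (1.10 ± 0.23, adjusted p = 0.00141) without both arrays, and Tnfrsf12a is on this list too. Il33 was lower without both (−1.59 ± 0.33, adjusted p = 0.000971). Of 18 interferon response genes Tap1 (1.35 ± 0.41, adjusted p = 0.0281) and Psmb9 (0.81 ± 0.27, adjusted p = 0.0444), both of antigen presentation, were higher without both arrays, although a second probe set of Tap1 gave −0.32. Neither was called without ANIT 5 or without Roziglitazone 3. In ANIT 5 the list mean was 1.61 over control, where the other ANIT arrays had −0.32 to 0.33.

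Markers of other cell types gave few calls, and their part in the results above was not tested. Of 22 genes of stellate cells and matrix none was called with 10 arrays and 4 were higher with 8: Timp1, a protease inhibitor (1.88 ± 0.29, adjusted p = 2.26e-05), the collagen genes Col1a1 (1.58 ± 0.34, adjusted p = 0.00161) and Col1a2 (1.34 ± 0.44, adjusted p = 0.045), and Fbn1 (0.63 ± 0.18, adjusted p = 0.0173). Col1a1 was at 9.58, 10.14, 8.13, 9.25 and 10.64 in ANIT 1 to 5 and at 8.70, 9.96, 7.44, 8.70 and 8.46 in Roziglitazone 1 to 5. Roziglitazone 2 lay among the ANIT arrays, and 2 of the 4 undoubted ANIT arrays lay within the control range of 7.91 to 10.10 with a median of 8.92. For Col1a2 all ANIT arrays lay within the control range of 8.05 to 10.51, and Roziglitazone 1 was below it at 7.30. The list means were −0.07 to 0.40 in ANIT and −0.42 to 0.48 in Roziglitazone, the highest being Roziglitazone 2. Without ANIT 1 or ANIT 2 as well, 2 members were called.

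Of 13 macrophage genes Lyz2, lysozyme, was called in both fits (0.90 ± 0.27, adjusted p = 0.0495 with 10 arrays, 0.86 ± 0.27, adjusted p = 0.0361 with 8), a call that 7 of the 8 fits without 1 more array lost, and list means were −0.04 to 0.31 in ANIT and −0.19 to 0.34 in Roziglitazone. None of 7 neutrophil, 6 erythroid or 9 adipocyte genes was called in either fit; the members with the largest differences were Csf3r (0.42 ± 0.30, adjusted p = 0.441), Alas2 (0.76 ± 0.40, adjusted p = 0.353 with 10 arrays, 0.37 ± 0.40, adjusted p = 0.645 with 8) and Lpl. The neutrophil mean was 0.87 and the erythroid mean 0.76 in ANIT 3, against at most 0.14 in any other array of the comparison. Of 14 lymphocyte genes Ccl5 was lower without both (−1.05 ± 0.33, adjusted p = 0.0345), of 11 endothelial genes Vwf was higher (1.01 ± 0.33, adjusted p = 0.0444), and of 12 pancreatic acinar genes Cela1 was lower (−1.24 ± 0.40, adjusted p = 0.041). Of 17 hepatocyte genes Fbp1 alone was called without both. With 8 arrays 6.63% of all genes were higher and 4.2% lower, so a single call is not read as a shift of its list.

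Outside the lists, several genes showed large differences. Mybl1, a transcription factor of the MYB family, was at 7.49, 8.27, 8.19, 7.86 and 8.31 in ANIT 1 to 5 and at 3.99, 8.37, 3.87, 4.10 and 4.27 in Roziglitazone 1 to 5. In controls Mybl1 ran from 3.56 to 4.42. Both doubted arrays stood with ANIT, and the other Roziglitazone arrays were near background, as the controls were, so the rise without both was at least 8.49-fold (3.10 ± 0.50, adjusted p = 0.00079 with 10 arrays, 3.92 ± 0.35, adjusted p = 8.02e-10 with 8). Neurl3 (2.66 ± 0.44, adjusted p = 0.000872 with 10 arrays, 3.62 ± 0.34, adjusted p = 1.54e-09 with 8), the desmosome protein gene Ppl (2.54 ± 0.50, adjusted p = 0.00295 with 10 arrays, 3.44 ± 0.41, adjusted p = 2.18e-07 with 8), Spsb4 (2.45 ± 0.52, adjusted p = 0.00535 with 10 arrays, 3.16 ± 0.52, adjusted p = 6.15e-05 with 8) and the actin-binding protein gene Enc1 (2.23 ± 0.51, adjusted p = 0.00926 with 10 arrays, 2.43 ± 0.53, adjusted p = 0.00187 with 8) were higher in both fits; of the 3 other probe sets of Enc1, 1 gave 2.27 and 2 gave −0.15 and −0.06. For Enc1, ANIT 1, 2 and 4 lay within the control range of 6.67 to 9.54, and Roziglitazone 4, at 6.33, lay below it. Cxadr, a junction protein that serves as a virus receptor, was higher without both by at least 9.18-fold (3.58 ± 0.38, adjusted p = 3.14e-08).

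Akr1c1, an aldo-keto reductase, was at 9.57, 6.80, 5.35, 9.93 and 7.23 in ANIT 1 to 5 and at 11.18, 10.82, 10.55, 10.76 and 11.43 in Roziglitazone 1 to 5. In controls Akr1c1 ran from 9.45 to 11.35. The array labelled Roziglitazone 2 lay with its own group and ANIT 3 was the lowest of all, so that the difference was greater with all 10 arrays (−3.17 ± 0.70, adjusted p = 0.00693) than without both (−2.59 ± 0.74, adjusted p = 0.0185). Dhrs7l1 had the same feature in ANIT 3 (−2.95 ± 0.85, adjusted p = 0.0421 with 10 arrays, −2.91 ± 0.90, adjusted p = 0.0307 with 8). Akr1c3, a second aldo-keto reductase, was lower in both fits (−2.48 ± 0.47, adjusted p = 0.00249 with 10 arrays, −3.38 ± 0.37, adjusted p = 4.27e-08 with 8), with Roziglitazone 2 among the ANIT arrays at 5.64.

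The methyltransferase gene Inmt was at 5.68, 5.55, 5.46, 5.74 and 6.03 in ANIT 1 to 5 and at 9.70, 5.61, 9.28, 8.34 and 9.23 in Roziglitazone 1 to 5. All ANIT arrays and Roziglitazone 2 lay below the lowest control (7.13 to 9.54 with a median of 9.02). The difference was −2.74 ± 0.51, adjusted p = 0.0024 and −3.39 ± 0.45, adjusted p = 1.77e-06. Sez6 (−3.09 ± 0.48, adjusted p = 2.18e-05), Nrep (−3.29 ± 0.48, adjusted p = 8.36e-06), Ifgga2l1 (−3.16 ± 0.72, adjusted p = 0.00304) and Fmo1, a flavin monooxygenase (−3.09 ± 0.50, adjusted p = 4.28e-05), were lower in both fits, and Gpm6a without both arrays (−3.28 ± 0.73, adjusted p = 0.00207). Of 140 genes tabulated for this comparison, 126 were called without both doubted arrays, and 91 of them remained called when any 1 of the other 8 arrays was left out; with all 10 arrays 72 were called, of which 41 remained called without any single array.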

How the data were processed

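Liver RNA of 39 rats was measured on Affymetrix Rat 230 2.0 arrays, 1 per rat. The deposited table holds linear probe set intensities, from 5.4 to 23152.1. The submitters' processing notes name RMA and the affy package. They give no version and no step back from RMA's usual log2 scale. Mean intensity per array was 348 to 363 and the median 77.8 to 109. Quantile normalized values would have the same median on every array, so the deposited values are not quantile normalized as they stand. How they were scaled was not tested, and no further normalization was applied. The log2 was taken here. Of 31099 probe sets, 57 were controls, 20826 had 1 gene symbol, 436 several and 9780 none. The last 2 kinds were left out, and the probe set with the highest mean stood for each of the 4525 genes with more than 1, leaving 14217 genes. A RefSeq gene table gave the current symbol for 20764 probe sets, and 62 kept the platform's.

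A model with 1 mean for each of 7 groups was fitted to the 39 arrays (37 without both doubted arrays) with limma 3.58.1 (lmFit, contrasts.fit, eBayes) in R 4.3.3, so that all groups share the estimate of spread. The script was tested on simulated data. The labels call the samples biological replicates and say no more, so p-values measure the spread between these samples. Poly-A spikes at 3.37 to 4.90 set the range called near background, and bounds on folds were taken with lower signals set to 4.90. The members of the comparison and the 34 gene lists were chosen with earlier results of these data known, so lists are described by counts and medians without a test. Text names per fit and direction the 12 called genes with the largest difference, and up to 5 called members per list and direction. Most members given as counts of 5 or fewer are named, and for lists with no call the member with the largest difference. Among the exceptions were the P450 genes Cyp2a2, Cyp2c23 and Cyp2u1, lower in both fits, and Mvk of cholesterol synthesis, higher in both. Cyp7a1, Abcb11, Krt7, Krt19, Cyp4a1, Plin2, Fabp4, Angptl4, Me1, Alb and the genes named for their promoters were chosen after their values were seen. Of 140 genes, 33 had further probe sets, 41 in all, of which 10 gave the opposite sign and belonged to Anxa4, Tubb6, Enc1, Aen, Srxn1, Plin2, Me1, Hlf and Tap1. Alternatives were quantile normalization, median centring, an offset of 32, a filter on the lowest 30% of genes, the mean of probe sets, array weights, a trended robust prior, only the arrays compared, a replicate block, and each array left out.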

Additional observations from a re-analysis of the deposited data

Results flagged for a closer look

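In the 2 groups of 5, 140 genes were examined for a single array far from the other 4 of its group, where the gap to the nearest other array exceeds Dixon's 95% critical value for the range. Chance gives about 1 in 20 groups, and 61 of 280 were found. Of the 140 genes 126 were called with ANIT 3 and Roziglitazone 2 left out, so the choice of genes favours these arrays and the number found cannot be set against chance. The array labelled Roziglitazone 2 accounted for 34 of them, the array labelled ANIT 3 for 25, and ANIT 4 and ANIT 5 for 1 each. Values are log2 intensities, with the range of the other 4 arrays in brackets.

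Roziglitazone 2 stood above the other Roziglitazone arrays at Abcb4 11.38 (8.65 to 9.25), Abcb1a 8.29 (5.69 to 6.32), Sqle 11.42 (8.95 to 9.39), Krt8 13.30 (10.64 to 11.40), Fbn1 8.46 (7.59 to 7.80) and Rnd1 9.26 (4.73 to 5.49). It was also above them at Mybl1 8.37 (3.87 to 4.27), Ppl 9.52 (5.24 to 6.34), Gstm3 11.84 (5.93 to 7.44), Cyp1a1 11.33 (5.14 to 6.84), Ccnd1 10.90 (8.19 to 8.77) and Srxn1 11.52 (7.84 to 8.44). It lay below them at Slc10a1 11.93 (12.78 to 12.88), Amacr 10.77 (12.13 to 12.59), Nr1h4 8.72 (10.23 to 10.55), Acox2 10.02 (11.41 to 11.83), Stac3 6.00 (10.71 to 11.31) and Car3 9.13 (13.55 to 13.76). Lower values were found too at Fmo1 7.53 (10.82 to 11.19), Akr1c3 5.64 (8.79 to 9.97), Ust5r 8.71 (10.92 to 11.50), Cyp2c11 10.95 (13.43 to 13.60), Oat 9.54 (12.18 to 12.60) and Otc 10.93 (12.16 to 12.48). Further low values were those of Hal 9.47 (11.005 to 11.28), Sds 8.54 (10.92 to 11.77), Acsl1 11.79 (12.75 to 12.94), Pygl 10.07 (11.20 to 11.53), Cyp2b3 12.15 (12.83 to 13.02) and Sult1c3 10.42 (12.55 to 12.98). The same held for Gstz1 11.14 (12.06 to 12.19), Hlf 6.91 (8.20 to 8.70), Sdha 10.84 (11.60 to 11.78) and Uqcrc2 9.53 (11.04 to 11.61).

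ANIT 3 stood below the other ANIT arrays at Abcc3 7.15 (10.10 to 11.21), Slc27a5 12.08 (12.79 to 13.01), Acat2 7.59 (11.02 to 11.95), Idi1 9.11 (11.91 to 12.61), Sqle 9.14 (11.45 to 11.76) and Krt8 12.17 (13.14 to 13.40). It was also below them at Krt18 12.51 (13.42 to 13.50), Anxa4 9.19 (10.17 to 10.51), Timp1 8.05 (9.46 to 9.88), Gpx2 6.00 (8.47 to 9.31), Neurl3 9.01 (10.41 to 10.87) and Gstm3 7.80 (11.07 to 12.07). Low as well were Cxadr 4.52 (7.93 to 9.04), Acss2 8.22 (11.41 to 12.64), Ccnd1 10.05 (11.03 to 11.13) and Gstm1 13.20 (13.63 to 13.71). It lay above them at Abcg5 7.85 (5.60 to 5.88), Krt19 6.83 (6.02 to 6.23), Serpina6 10.16 (7.53 to 8.04), Pklr 8.96 (7.95 to 8.19), Pdk4 10.82 (7.74 to 8.56) and Ube2c 10.12 (7.51 to 7.996). Higher values were found too at Cdkn1a 11.91 (9.92 to 10.31), Lyz2 12.79 (11.59 to 11.85) and Hlf 7.62 (6.97 to 7.15). ANIT 5 was high at Tap1 9.54 (8.22 to 8.55), and ANIT 4 was low at Asns 6.63 (7.57 to 7.80). At Sqle, Krt8, Ccnd1, Gstm3 and Hlf both doubted arrays lay apart from their own groups, each toward the other group.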

How the results depend on the processing

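The count of 524 genes called between ANIT and Roziglitazone with all 10 arrays ran from 182 (without Roziglitazone 3) to 1343 (without Roziglitazone 2) when single arrays were left out. A 2-fold minimum left 225 genes, array weights gave 2773, and a fit to the 10 arrays alone gave 0 (2157 at an unadjusted p below 0.05). Without the arrays labelled ANIT 3 and Roziglitazone 2 the count was 1539. From there a 2-fold minimum left 686 and array weights gave 3456. Leaving out ANIT 5 and Roziglitazone 1 as well, the arrays of both compared groups with a low GAPDH 5′ signal, gave 951. Of these 951 genes, 887 were among the 1539. Arrays of other groups with a low 5′ signal, controls 4 and 5 among them, stayed in that fit. Single arrays left out gave 1010 (ANIT 5) to 1557 (Roziglitazone 1), and the 8 arrays alone gave 1387. The fits without both arrays and the loss of ANIT 5 and Roziglitazone 1 were chosen after seeing the data. Quantile normalization, median centring, the offset, the filter, the mean of probe sets and the trended prior gave 493 to 629 and 1438 to 1602 genes; under quantile normalization 280 were higher and 245 lower with 10 arrays, and 810 and 733 with 8. For Roziglitazone against control array weights gave 9 and 4 genes, and single arrays left out gave 0 to 1. Why the counts move with array weights was not tested.

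Replicate numbers were not shown to pair the rats, since same-numbered ANIT and Roziglitazone arrays had deviations correlated at 0.0666, 0.296, 0.203, 0.050 and −0.145 for numbers 1 to 5. With the replicate number as a block, 0 genes were called with 10 arrays (2209 at an unadjusted p below 0.05) and 119 with 8.

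Of the 140 genes tabulated, only genes called in neither fit changed sign. Leaving out single arrays took Cyp7a1 from −0.51 to 0.28 with 10 arrays and from −0.066 to 0.40 with 8. Its difference was 0.16 without both arrays and −0.092 without ANIT 5 and Roziglitazone 1 as well. For Plin2 single arrays left out gave −0.26 to 0.11 with 10 arrays. The mean of probe sets gave 0.12 with 10 and 0.087 with 8, and the fit also without ANIT 5 and Roziglitazone 1 gave 0.0953. For Cyp4a1 with 8 arrays the range over single arrays was −0.11 to 0.195, median centring gave −0.0167 and the replicate block −0.11. Krt7 ran from −0.021 to 0.24 and Abcb11 from −0.0033 to 0.098 over single arrays left out of 10, and Fabp4 from −0.068 to 0.75 over those left out of 8. The cause of these changes was not tested. Of the 4 undoubted arrays of the lower group, signal was near background in 4 for Mybl1, 3 for Abcc3 and Cxadr, 2 for Rnd1, Gpx2, Abcc4, Acot1, Sult1c2 and Gpm6a and 1 for Abcg8, Mcm6 and Ube2c, which limits their fold changes; the bounds were added after seeing the data.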
